A study of Homo sapiens with 4 samples.

Results

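The 32 genes described here make up a list of amino acid stress response genes under *ATF4*, the transcription factor at the centre of the integrated stress response. They were picked out by gene symbol from a list drawn up with earlier results of these data known, and all 32 were found among the 28278 genes of the deposited count table. RNA was sequenced from cells described as HepG2, a human hepatocellular carcinoma line, although the marker counts given below do not bear this label out. The cells had been infected with a lentivirus carrying Cas9 and either a control sgRNA or an sgRNA against *USP22*. That gene encodes the deubiquitinase of the SAGA complex. Every library came from cells kept in Sorafenib, a multikinase inhibitor used against liver cancer, at 10 µM for 24 h, so that no library shows the cells without the drug. There were 2 control libraries and 2 libraries labelled sgUSP22, and each group was a stably infected population of cells selected with puromycin. Which list members differed in mRNA level between the groups was the question asked of these 4 libraries.

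When a cell runs short of an amino acid or accumulates misfolded protein, a kinase phosphorylates the translation factor eIF2, general protein synthesis slows, and the ATF4 mRNA is translated more. ATF4 then binds, often with a C/EBP partner, to composite DNA elements near genes for amino acid synthesis and import, and near genes that end the response or lead to cell death. ATF4 itself is controlled largely at the level of translation, so that its mRNA and its protein can move apart, and only mRNA was measured.

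The composite element is shown because it is the sequence feature through which these genes are usually grouped. The letters TGATGNAA, on either strand, were searched in RefSeq promoter windows of GRCh38.p14 (the hg38 assembly), which run from 250 bases before to 50 bases after an annotated start. A total of 26 members had at least 1 such window, and 8 of the 26 (30.8%) held the letters, against 311 of 11359 tested genes with a window (2.74%) and 3.62% of all 35116 windows. *PYCR1*, *NUPR1*, *ALDH1L2*, *GPT2*, *SHMT2* and *PSPH* had no entry in the table. The matches are printed on the strand of the gene with the searched letters in capitals. For *CHAC1* (chr15:40953251-40953280, plus strand) and *FGF21* (chr19:48755459-48755488, plus strand) the letters lie on the opposite strand and read TTGCATCA. For *ASNS* (chr7:97872458-97872487, minus strand), *CEBPG* (chr19:33374060-33374089, plus strand), *SLC1A5* (chr19:46784893-46784922, minus strand), *JDP2* (chr14:75427995-75428021, plus strand) and *ATF3* (chr1:212565205-212565234, plus strand) they lie on the strand of the gene.
CHAC1: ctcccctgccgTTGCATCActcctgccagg
FGF21: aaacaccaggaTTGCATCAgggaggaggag
ASNS: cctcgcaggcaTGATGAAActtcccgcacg
CEBPG: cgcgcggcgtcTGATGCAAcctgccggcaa
SLC1A5: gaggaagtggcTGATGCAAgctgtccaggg
JDP2: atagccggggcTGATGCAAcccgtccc
ATF3: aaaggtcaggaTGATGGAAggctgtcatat
Distances were counted from the annotated RefSeq start of each window. The first base of the match lay 209 bases before it in *CHAC1*, 54 in *FGF21* and 68 in *ASNS*. The distance was 42 bases in *CEBPG*, 97 in *SLC1A5*, 16 in *JDP2* and 191 in *ATF3*. Against the gene positions of GENCODE, the matches of *FGF21* and *ATF3* lay before the gene. Those of *CHAC1*, *ASNS*, *CEBPG*, *SLC1A5* and *JDP2* lay inside it, so these are not upstream of the outermost start. In *SLC7A1* the letters TGATGAAA lay just after the start. The palindrome TGACGTCA, known as the cAMP response element, was found in 1 of the 26 members, *PPP1R15A* (chr19:48872352-48872381, plus strand), and in 3.63% of the tested genes with a window. The match in *PPP1R15A* lay 58 bases before the RefSeq start of its window but inside the gene positions given below. It does not overlap a match to the other letters.
PPP1R15A: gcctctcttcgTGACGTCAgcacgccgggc
A match states only that these letters are present, and the other members may carry such an element outside these windows.

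The depth was similar, from 62030307 to 64728272 counts per library, and the 32 genes took between 0.955% and 0.973% of them. Levels are given as CPM, counts scaled to a library of fixed size. *USP22*, the targeted gene, was counted 16450 and 16537 times in control and 20279 and 20368 times in sgUSP22-labelled libraries. Its mRNA was thus not lower but higher there (log2 fold change 0.22, edgeR adjusted p = 0.000394), and directions below follow the labels. The study checked its knockout by Western blot, and the libraries hold no measure of the protein. The identity of the cells was checked against 24 hepatocyte and hepatoma markers, of which 12 were listed at 0 in all 4 libraries, *ALB*, *APOA1*, *APOB*, *TTR* and *GPC3* among them, and 1 reached 1 CPM in every library. Their summed level was 16.1 to 16.7 CPM in control and 12.7 to 12.9 CPM in sgUSP22-labelled libraries. Nearly all of it came from *FOXA1*, with 969 and 1030 against 764 and 777 counts. No other marker of this set had more than 19 counts in any library. The summed level of 8 blood cell markers, 4 of them at 0, ranged from 0.516 to 0.676 CPM in control and from 0.490 to 0.881 CPM in sgUSP22-labelled libraries, and that of 5 neural markers, 2 of them at 0, from 20.3 to 20.8 and from 22.5 to 22.7 CPM. For 6 epithelial markers, among which *CDH1* and *KRT19* were at 0, the sums were 1729 to 1765 and 1351 to 1402 CPM. Most of these sums was *KRT8*, with 46516 and 49130 against 40143 and 38104 counts, and *KRT18*, with 60556 and 62855 against 50076 and 46770. For 6 mesenchymal markers they were 1873 to 1881 and 2095 to 2104 CPM. Within this last set *VIM* had 65720 and 66580 against 54526 and 52054 counts, and *FN1* 17036 and 17441 against 40015 and 39528. In the same set *COL1A2* had at most 7 counts in a library and *THY1* at most 31. The counts of the hepatocyte and hepatoma markers thus do not bear out the HepG2 label, and which cells were sequenced cannot be settled here. The part of cell identity in the results below was not tested. No source says whether the libraries of a group came from separate cultures, and p-values therefore measure the spread between these libraries, which may be technical.

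All 32 genes passed the filter on low counts. *FGF21* did so only through the sgUSP22-labelled libraries, with 75 and 54 counts. Control replicate 1 held 7, below the minimum of 10, so its call is not independent of the filter. Fold changes compare the sgUSP22-labelled with the control libraries, adjusted p-values are those of edgeR's quasi-likelihood test corrected over all 15150 tested genes, and a gene is called when its adjusted p-value is below 0.05 and its fold change at least 1.5. The spread between libraries was small, so that small differences also passed the p-value threshold. Of the 32 genes, 3 were called higher, *FGF21*, *CHAC1* and *SLC38A2*, where 8.88% of all tested genes were, and 5 were called lower, *PPP1R15A*, *DDIT4*, *VLDLR*, *NUPR1* and *PYCR1*, where 7.25% of all tested genes were. By the adjusted p-value alone, 8 members were higher and 18 lower, against 26.8% and 25.8% of all tested genes. Control and sgUSP22-labelled libraries were fully apart for 31 members, as they were for 75.9% of all tested genes. The median log2 fold change of the 32 genes was -0.16, with 22 below 0, beside a median of 0.00091 and 49.9% below 0 for all tested genes. In bulk RNA, a lower level in every cell and a smaller share of expressing cells cannot be told apart.

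**Figure D1:**
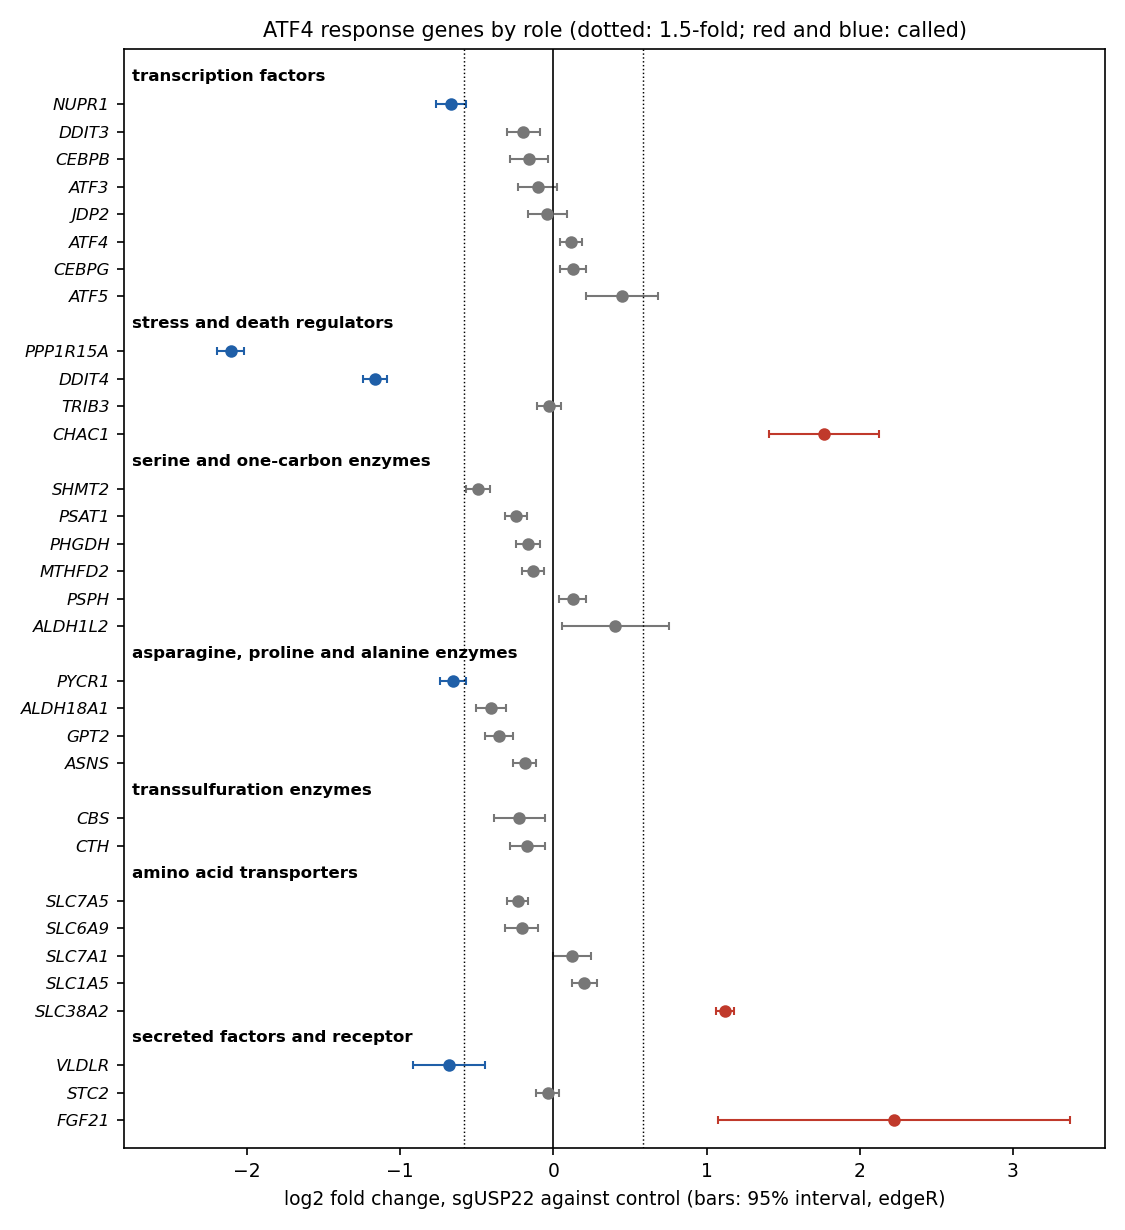
Log2 fold change of each of the 32 ATF4 response genes in sgUSP22-labelled against control libraries (x axis), grouped by role (y axis), with 95% intervals from edgeR as bars, the 1.5-fold lines dotted, and called genes in red (higher) or blue (lower). Most members lie within the dotted lines and left of 0, *PPP1R15A* lies farthest left at -2.11, and the interval of *FGF21*, from 1.07 to 3.37, is the widest.

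Among the transcription factors, the mRNA of ATF4 itself differed little. *ATF4* was counted 34936 and 34908 times in control and 40725 and 39290 times in sgUSP22-labelled libraries, or 566 ± 9.48 and 614 ± 7.86 CPM (SD, n = 2). Both sgUSP22-labelled libraries were above both control libraries, and the log2 fold change was 0.12 (standard error, SE, 0.032, adjusted p = 0.0109), below the 1.5-fold threshold. *ATF5*, a relative of ATF4 that is also controlled through translation, had 609 and 642 against 970 and 836 counts. Its log2 fold change of 0.45 (SE 0.11, adjusted p = 0.00503) was likewise too small for a call. *CEBPG*, a dimer partner of ATF4, was 9.40% higher (log2 fold change 0.13, adjusted p = 0.0164).

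Of the 8 transcription factors, 3 were lower by the adjusted p-value, where 25.8% of all tested genes were. *NUPR1*, a small chromatin-associated stress factor, was the 1 called lower. It had 11706 and 12986 counts in control and 8257 and 8140 counts in sgUSP22-labelled libraries, and no library of the second group came near the first. The level went from 200 ± 11.4 to 126 ± 0.313 CPM (SD, n = 2), a log2 fold change of -0.67 (SE 0.045, adjusted p = 1.85e-06). *DDIT3*, which encodes the pro-apoptotic factor CHOP, had 4716 and 4495 against 4294 and 4201 counts (log2 fold change -0.20, adjusted p = 0.00725). *CEBPB* had 11415 and 12950 against 12118 and 10927 counts, with a log2 fold change of -0.16 (adjusted p = 0.0371). *ATF3*, a repressor induced by many stresses, and *JDP2*, a repressor of AP-1 sites, did not pass the p-value threshold, with log2 fold changes of -0.10 (95% interval -0.23 to 0.022) and -0.039 (95% interval -0.17 to 0.086). *JDP2* was the single member whose groups overlapped.

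The 4 regulators of stress and death showed the widest range of the list. *PPP1R15A* encodes GADD34, the stress-induced subunit that brings protein phosphatase 1 to eIF2 and so ends the response. It lies on the plus strand of chromosome 19 (hg38, as for the positions that follow) from 48872212 to 48876059. Its counts were 28519 and 27818 in control and 7078 and 6744 in sgUSP22-labelled libraries. The sgUSP22-labelled libraries stood far below the control libraries, at 106 ± 2.29 against 457 ± 15.4 CPM (SD, n = 2). The log2 fold change was -2.11 (SE 0.040, adjusted p = 8.9e-10), a 4.31-fold decrease, and 166 of the 15150 tested genes had a lower value.

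*DDIT4* encodes REDD1, an inhibitor of the growth kinase mTORC1, and lies on the plus strand of chromosome 10 from 72273919 to 72276036. It had 37934 and 37726 counts in control and 18201 and 17472 counts in sgUSP22-labelled libraries. The level was 613 ± 12.3 and 274 ± 4.47 CPM (SD, n = 2), with both libraries of the second group below both of the first. The log2 fold change was -1.16 (SE 0.034, adjusted p = 1.12e-08).

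*CHAC1*, on the plus strand of chromosome 15 from 40952962 to 40956512, encodes an enzyme that degrades glutathione and is often used as a reporter of ATF4 activity. It went the other way, from 148 and 199 counts in control to 599 and 649 counts in sgUSP22-labelled libraries. It rose from 2.81 ± 0.539 to 9.58 ± 0.663 CPM (SD, n = 2), a low level in both groups, with a log2 fold change of 1.77 (SE 0.16, adjusted p = 1.25e-05). *TRIB3*, a pseudokinase that restrains ATF4 and AKT, had 17958 and 18339 against 19259 and 18298 counts. Its level was 294 ± 0.391 and 288 ± 6.81 CPM (SD, n = 2), with a log2 fold change of -0.030 and a 95% interval from -0.11 to 0.048 (adjusted p = 0.512). *TRIB3* and *CHAC1*, usually listed side by side as ATF4 targets, thus had values on different sides of the threshold, although the difference between them was not tested.

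**Figure D2:**
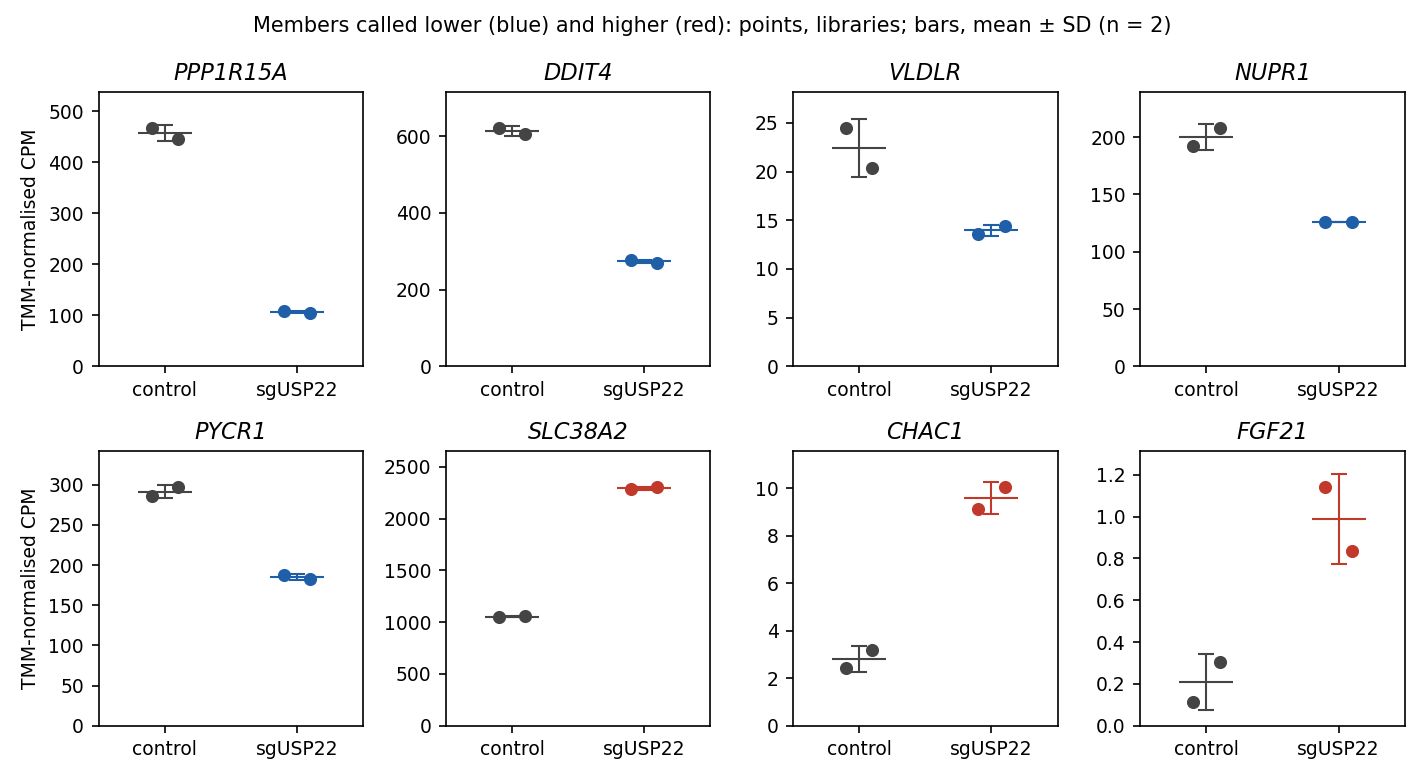
TMM-normalised CPM (y axis of each panel, from 0) of the 8 called members in the control and sgUSP22-labelled libraries (x axis), with points for libraries and bars for mean ± SD (n = 2). The groups are apart in every panel, and the bars are longest relative to the mean for *FGF21* and for the control libraries of *CHAC1* and *VLDLR*.

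None of the 6 enzymes of serine and folate metabolism reached the fold change threshold, in edgeR or in DESeq2, while by the adjusted p-value of edgeR 1 was higher and 4 lower (2 and 4 at an unadjusted p below 0.05, which 29.4% of all tested genes reached as higher and 28.2% as lower). *PHGDH*, *PSAT1* and *PSPH* encode the consecutive steps that make serine from a glycolytic intermediate. *PHGDH* had 41233 and 42446 against 40820 and 38073 counts (log2 fold change -0.16, adjusted p = 0.00273). *PSAT1* had 45226 and 47626 against 42512 and 40344 counts (log2 fold change -0.24, adjusted p = 0.000182). The last step differed in sign, since *PSPH* had 5887 and 5945 against 6863 and 6773 counts and a log2 fold change of 0.13 (adjusted p = 0.0202). Of the mitochondrial enzymes that pass the serine carbon to folate, *SHMT2* had the largest difference, 546 ± 12.3 against 388 ± 10.8 CPM (SD, n = 2). Its counts were 32743 and 34582 in control and 26020 and 24577 in sgUSP22-labelled libraries, a log2 fold change of -0.49 (SE 0.035, adjusted p = 2.79e-06). *MTHFD2*, the next enzyme of this path, had a log2 fold change of -0.13 (adjusted p = 0.00491). *ALDH1L2*, the mitochondrial formyltetrahydrofolate dehydrogenase, was scarce, with 242 and 288 against 344 and 396 counts (log2 fold change 0.40, adjusted p = 0.0514).

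The enzymes for asparagine, proline and alanine were all lower by the adjusted p-value, 4 of 4, where 25.8% of all tested genes were. Each had at least 4884 counts in every library, a level at which small differences also pass. Of the 4, 1 was called lower, where 7.25% of all tested genes were. *PYCR1*, on the minus strand of chromosome 17 from 81932384 to 81942412, makes proline in mitochondria. It had 17426 and 18533 counts in control and 12347 and 11749 counts in sgUSP22-labelled libraries. It fell from 291 ± 7.98 to 185 ± 4.17 CPM (SD, n = 2), with a log2 fold change of -0.66 (SE 0.038, adjusted p = 7.47e-07). *ALDH18A1*, which catalyses the first step from glutamate to proline, had 11368 and 12377 against 9760 and 9146 counts (log2 fold change -0.41, adjusted p = 3.84e-05). It lies on the long arm of chromosome 10, whose genes were lower as a group, as described below. *GPT2*, the mitochondrial alanine aminotransferase, had a log2 fold change of -0.35 (adjusted p = 6.25e-05). *ASNS*, asparagine synthetase and a classical target of ATF4, had 21354 and 22542 against 20735 and 19951 counts. In CPM the control libraries were above the sgUSP22-labelled ones by little, 356 ± 7.87 against 312 ± 4.58 (SD, n = 2), and the log2 fold change was -0.19 (adjusted p = 0.00123).

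The transsulfuration enzymes, which turn homocysteine into cysteine, differed by small amounts, and neither reached the fold change threshold. *CTH* had 3076 and 3275 against 3030 and 2935 counts, with a log2 fold change of -0.17 (adjusted p = 0.0192). *CBS* had 2487 and 2453 against 2419 and 2055 counts, with a log2 fold change of -0.22 (adjusted p = 0.0297). The value of *CBS* is uncertain, because hg38 holds a near-identical copy, *CBSL*, to which 5422 and 5824 against 4861 and 5259 counts were assigned. Summed over both copies, the counts were 7909 and 8277 in control and 7280 and 7314 in sgUSP22-labelled libraries.

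Of the 5 amino acid transporters, 2 were higher and 2 lower by the adjusted p-value, where 26.8% and 25.8% of all tested genes were. The called transporter was *SLC38A2*. It encodes SNAT2, which carries small neutral amino acids such as alanine and glutamine into the cell with sodium, and lies on the minus strand of chromosome 12 from 46358188 to 46372773. Counts were 63945 and 66214 in control and 150070 and 148872 in sgUSP22-labelled libraries. The level rose from 1055 ± 8.95 to 2295 ± 15.9 CPM (SD, n = 2), and each group was tightly spaced. This gave a log2 fold change of 1.12 (SE 0.027, adjusted p = 3.12e-09). *SLC7A5*, the light chain of the large neutral amino acid exchanger LAT1, had 98347 and 104799 against 93636 and 88798 counts. Its log2 fold change was -0.23 (adjusted p = 0.000185). *SLC1A5*, the glutamine carrier ASCT2, was 15.1% higher (log2 fold change 0.20, adjusted p = 0.000982), and *SLC6A9*, the glycine carrier GLYT1, was 13.4% lower (log2 fold change -0.21, adjusted p = 0.00428). The arginine and lysine carrier *SLC7A1* had 10563 and 12287 against 13421 and 12809 counts, a log2 fold change of 0.12 with a 95% interval from -0.0024 to 0.24 (adjusted p = 0.0923).

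The remaining 3 genes encode secreted factors and a receptor. *FGF21*, a hormone that liver cells release under nutrient stress, was barely detected, with 7 and 19 counts in control and 75 and 54 counts in sgUSP22-labelled libraries. It rose, with a log2 fold change of 2.22, but the standard error of 0.51 was the largest of the list (adjusted p = 0.0047), and its level was low in both groups, 0.210 ± 0.134 against 0.989 ± 0.216 CPM (SD, n = 2). Without control replicate 2 the log2 fold change was 3.09, and without control replicate 1 it was 1.69. *VLDLR*, a receptor for lipoproteins rich in triglyceride, had 1493 and 1268 against 892 and 927 counts. It fell from 22.4 ± 2.94 to 14.0 ± 0.556 CPM (SD, n = 2), a log2 fold change of -0.68 (SE 0.10, adjusted p = 0.000388), and without control replicate 1 the log2 fold change was -0.54, too small for a call. The antisense gene *VLDLR-AS1* overlaps it, and reads of the pair cannot be told apart without strand. *STC2*, a secreted glycoprotein, had 14573 and 14884 against 15482 and 14835 counts (log2 fold change -0.037, 95% interval -0.11 to 0.040, adjusted p = 0.401).

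Levels of different genes were compared after division by the length of the canonical transcript. In control libraries *ATF4* had the highest level of the list, 399 CPM per kb, followed by *PHGDH* with 364 and *SLC7A5* with 361 CPM per kb. These levels placed *ATF4* at percentile 99.0 of the tested genes with a known length. *FGF21*, with 0.156 CPM per kb, and *ALDH1L2*, with 0.578 CPM per kb, were the lowest, and *CHAC1* stood at percentile 26.5. In sgUSP22-labelled libraries *SLC38A2* had the highest level, 479 CPM per kb against 220 in control, followed by *ATF4* with 433 CPM per kb.

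Of the members, *DDIT4* and *ALDH18A1* lie on the long arm of chromosome 10. There, 322 genes averaging at least 1 log2 CPM that start beyond 40 Mb were shifted as a group, to a median of -0.41 on the log2 scale, and 89.4% of them were below 0. *ALDH18A1* lay close to the median of that arm, whereas *DDIT4*, at -1.16, lay below it. Within 5 Mb on either side, the 62 neighbours of *ALDH18A1* had a median of -0.41 and the 58 neighbours of *DDIT4* a median of -0.42. The neighbours of the other members had medians between -0.17 and 0.27. Without *DDIT4* and *ALDH18A1*, 3 members were called higher and 4 lower, and the median was -0.15. The part of chromosomal position in these values was not tested.

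**Figure D3:**
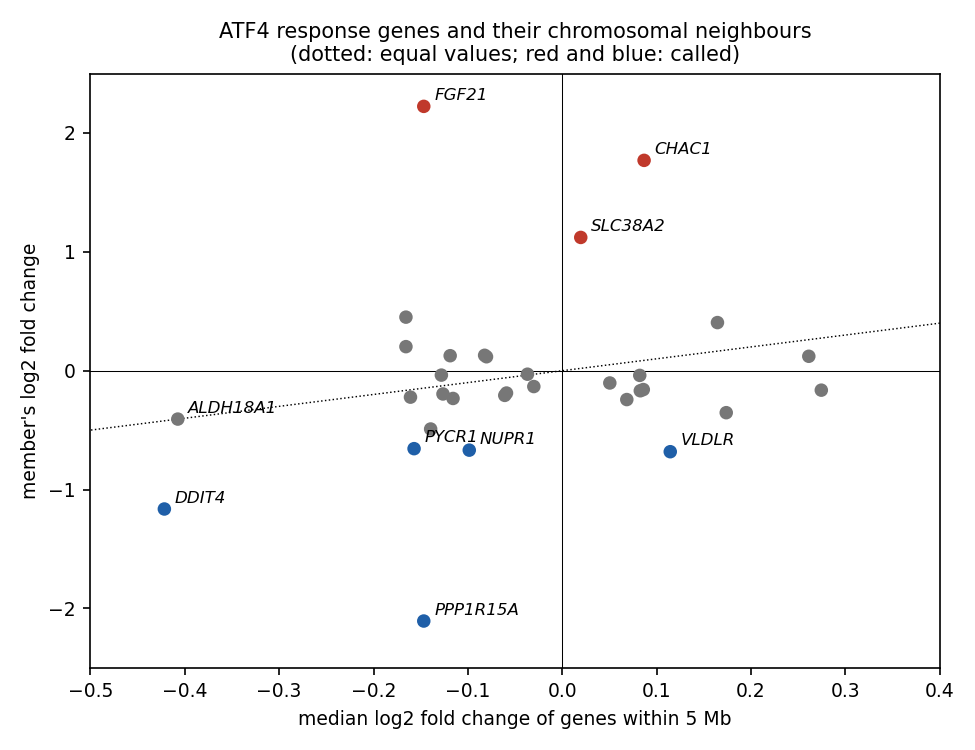
Log2 fold change of each member (y axis) against the median log2 fold change of the genes that start within 5 Mb of it and average at least 1 log2 CPM (x axis), with equal values on the dotted line and called members in red (higher) or blue (lower). *ALDH18A1* lies on the dotted line, *DDIT4* and *PPP1R15A* lie below it, and *FGF21*, *CHAC1* and *SLC38A2* lie above it.

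The differences were also computed with trends against transcript length and GC content removed together, so that the part of each was not tested alone. The canonical transcripts of the members ranged from 37.4% GC in *SLC38A2* to 66.2% GC in *CEBPB*. After both trends were removed from each library, the median log2 fold change of the list was -0.051 in place of -0.16, and 19 in place of 22 members were below 0. The members that differed most kept their calls, with corrected values of -1.96 for *PPP1R15A*, -0.99 for *DDIT4*, 0.88 for *SLC38A2* and 1.98 for *CHAC1*. *ATF4* had a corrected log2 fold change of 0.26 (adjusted p = 5.31e-05). The correction ended the call of *PYCR1*, at -0.47, and brought *ATF5* past the threshold, at 0.62 (adjusted p = 0.000693). The corrected list thus had 4 members called higher and 4 lower. By the adjusted p-value alone, 8 members were higher and 13 lower after the correction, in place of 8 and 18. Among those that no longer passed were *DDIT3* (adjusted p = 0.33), *CEBPG* (0.78), *SLC6A9* (0.19) and *CBS* (0.39). The correction also turned the sign of *PHGDH*, *CEBPB* and *TRIB3*, and the corrected value of *TRIB3* was 0.14 (adjusted p = 0.0041).

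**Figure D4:**
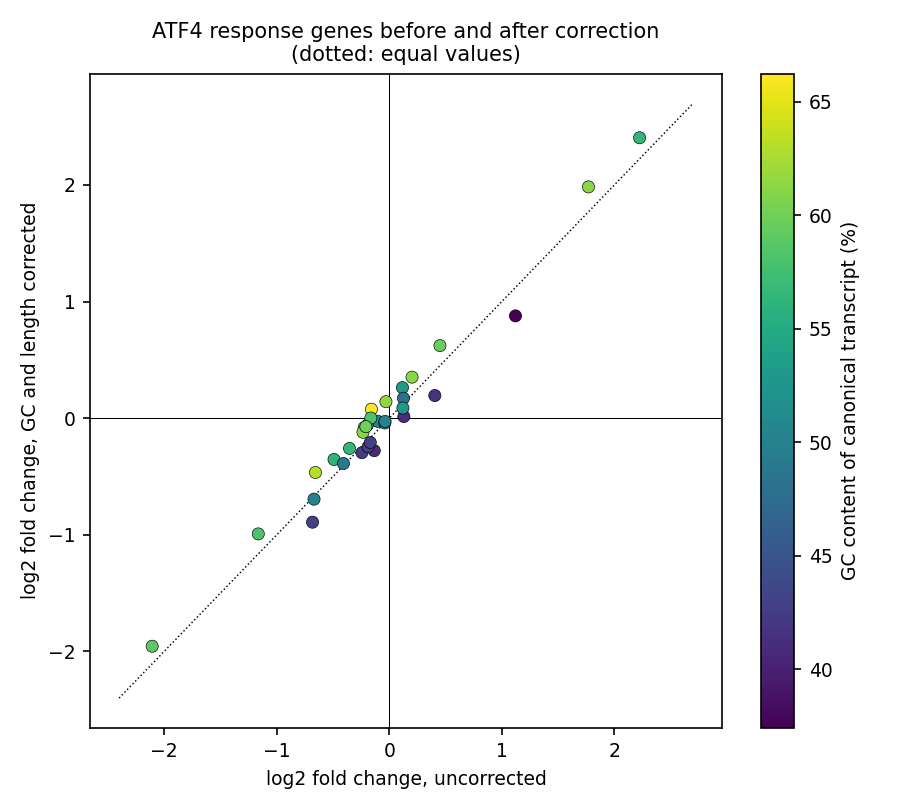
Log2 fold change of the 32 members after (y axis) against before (x axis) the removal of trends with GC content and transcript length, coloured by the GC percentage of the canonical transcript, with equal values on the dotted line. Members with the most GC-rich transcripts lie above the line and those with the most AT-rich transcripts, such as *SLC38A2*, lie below it.

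The 6 members without a promoter window, *PYCR1* and *NUPR1* of the called ones among them, are in neither of the following sets. The members with the composite letters in a window had a median of 0.13 on the log2 scale. Of these 8, 2 were called higher, *FGF21* and *CHAC1*, both at a low level, and 0 lower. *FGF21* had passed the count filter only through the sgUSP22-labelled libraries. The others with a window but no match had a median of -0.18, with 1 of 18 called higher and 3 lower. Of all tested genes 8.88% were called higher and 7.25% lower. The values overlapped, from -0.19 to 2.22 in the first set and from -2.11 to 1.12 in the second, and the difference was not tested.

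Upstream of ATF4, 18 genes encode the eIF2 kinases, eIF2 itself, its exchange factor eIF2B and their regulators. By edgeR and by DESeq2, 1 was called higher and 0 lower, where edgeR called 8.88% and 7.25% of all tested genes. In edgeR 5 were higher and 7 lower at an unadjusted p below 0.05, where 29.4% and 28.2% of all tested genes were. The called gene was *PPP1R15B*, the constitutive counterpart of *PPP1R15A* in the eIF2 phosphatase. It had 15355 and 16130 counts in control and 27247 and 27140 counts in sgUSP22-labelled libraries, and it rose from 255 ± 4.76 to 418 ± 4.09 CPM (SD, n = 2). Its log2 fold change was 0.71 (SE 0.034, adjusted p = 2.49e-07), so the genes for the alternative subunits of this phosphatase had opposite signs. *EIF2S3*, named for its high CPM, encodes the gamma subunit of eIF2 and had a log2 fold change of -0.28 (adjusted p = 3.74e-05). The kinases, named here after their values were seen, had log2 fold changes of 0.47 for *EIF2AK3* (PERK, adjusted p = 0.000682), -0.50 for *EIF2AK2* (PKR, adjusted p = 3.12e-06), -0.11 for *EIF2AK1* (HRI, adjusted p = 0.025) and -0.048 for *EIF2AK4* (GCN2, adjusted p = 0.37).

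Further genes known as ATF4 targets had values on both sides of 0. Of 16 such genes 14 were tested, and 2 were called higher (14.3%) and 1 lower (7.14%). Over all tested genes these shares were 8.88% and 7.25%. The median of the 14 genes was -0.10. *INHBE*, which encodes an inhibin subunit made in liver, had 2455 and 2458 against 6335 and 6189 counts (log2 fold change 1.27, adjusted p = 3.88e-08). *SESN2*, a leucine sensor that restrains mTORC1, had 839 and 885 against 1620 and 1605 counts (log2 fold change 0.83, adjusted p = 2.12e-05). *GDF15*, a secreted stress hormone, had 12150 and 12815 against 8665 and 8032 counts (log2 fold change -0.66, adjusted p = 1.26e-06). *SLC3A2* and *SLC7A11*, named after their values were seen, encode the heavy and light chains of the cystine importer. *SLC3A2* had a log2 fold change of -0.52 (adjusted p = 1.85e-06) and *SLC7A11* one of 0.36 (adjusted p = 0.00029).

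Transfer RNA synthetases and chaperones, which respond to the same stresses, were also counted, to be read against the shares of all tested genes given above. Of 20 cytosolic aminoacyl-tRNA synthetases 0 were called higher and 1 lower by edgeR and by DESeq2, while in edgeR 6 were higher and 9 lower by the adjusted p-value, and 7 and 10 at an unadjusted p below 0.05. *VARS1*, for valine, had a log2 fold change of -0.61 (adjusted p = 9.4e-07), and *WARS1*, for tryptophan and named for its high CPM, one of 0.27 (adjusted p = 9.15e-05). Of 20 genes of the ATF6 and XBP1 branch of the unfolded protein response 0 were called by edgeR or DESeq2, and in edgeR 10 were higher and 4 lower by the adjusted p-value alone, or 10 and 5 at an unadjusted p below 0.05. *HSPA5*, the chaperone BiP, had 142214 and 143445 against 147109 and 142508 counts (log2 fold change -0.059, adjusted p = 0.0819). *CANX*, the lectin chaperone calnexin, had a log2 fold change of 0.23 (adjusted p = 4.61e-05).

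Of 17 other factors of the bZIP family, to which ATF4 belongs, 1 was called higher (5.88%) and 3 lower (17.6%). Over all tested genes these shares were 8.88% and 7.25%. *FOS* had 2815 and 2722 against 5551 and 5480 counts (log2 fold change 0.92, adjusted p = 4.68e-07). Its dimer partner *JUN* had 4410 and 4402 against 2326 and 1967 counts (log2 fold change -1.12, adjusted p = 1.15e-06). *MAFF* had a log2 fold change of -0.81 (adjusted p = 2.48e-06) and *FOSL1* one of -0.70 (adjusted p = 6.5e-05). These genes encode subunits of AP-1 and related dimers, and their values had opposite signs.

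Among 14 other folate and glycine cycle enzymes 12 were tested, and 2 were called higher and 0 lower by edgeR and by DESeq2, with 5 higher and 4 lower in edgeR at an unadjusted p below 0.05. *SLC25A32*, the mitochondrial folate carrier, had a log2 fold change of 0.62 (adjusted p = 7.88e-05). Among 18 enzymes of glutamine, proline, urea and methionine metabolism 15 were tested, and 2 were called in each direction. *MAT2A*, which makes S-adenosylmethionine, had 5505 and 5006 against 11675 and 13868 counts (log2 fold change 1.20, adjusted p = 2.32e-06). *GOT1* (log2 fold change -0.72) and *GLUD1* (log2 fold change -0.62), which interconvert glutamate and its keto acid, both lie on chromosome 10, at 99396870 and 87050202, on the arm described above. By the adjusted p-value alone, 73.3% of the 116 tested genes of these 7 sets passed in either direction. The share was 81.3% for the members and 52.5% for all tested genes. Taking the 116 genes as a whole, 8 were called higher and 7 lower, or 6.90% and 6.03%. Over all tested genes 8.88% were called higher and 7.25% lower, the shares beside which the counts of this paragraph stand.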

How the data were processed

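RNA-seq libraries of Sorafenib-treated cells labelled HepG2, 2 control and 2 labelled sgUSP22, were analysed. The authors aligned reads to hg38 with HISAT2 2.2.1 and deposited whole-number gene counts from StringTie 2.2.1, not scaled to library size. The annotation and the strand setting are not given in the sources used here. Another tested gene overlaps 9 members on the opposite strand, and without strand their reads cannot be told apart. These members are *ATF5*, *DDIT3*, *CEBPB*, *SHMT2*, *MTHFD2*, *ALDH1L2*, *SLC1A5*, *SLC6A9* and *VLDLR*. *MARS1*, which overlaps *DDIT3*, had 28172 and 29273 counts in control and 27852 and 27272 in sgUSP22-labelled libraries.

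The deposited counts went into edgeR 4.0.16 under R 4.3.3, with TMM factors, a filterByExpr minimum of 10, glmQLFit and glmQLFTest, and p-values were adjusted by Benjamini-Hochberg. An SE is the absolute log2 fold change over the square root of F. Marker sums used CPM of the library total. The thresholds are those of the study's methods, which used DESeq2 1.34.0. Alternatives were DESeq2 1.42.0, RLE factors, scaling by library size only, testing all genes, testing genes that average 50 counts or more, a replicate block, other call rules, lowess trends (span 0.3) against GC content and length (known for 94.1% of tested genes), and omission of single libraries. The code was tested on simulated data. Positions and lengths came from GENCODE, promoters from RefSeq.

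The members and the 7 related sets were chosen with earlier results of these data known. Every member could be named. From each related set the text names up to 4 called genes with the largest change, groups apart and an average of at least 1 log2 CPM, filled up to 2 with the most abundant genes, and 2 genes that this rule selects are not reported here. The 5 Mb windows were chosen after the data were seen.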

Additional observations from a re-analysis of the deposited data

How the results depend on the processing

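The calls of 3 members higher and 5 lower, with a median log2 fold change of -0.16, were the same with DESeq2, RLE factors, no filter and the replicate block (3 higher and 5 lower, median -0.16). No source ties libraries through their replicate number, and the deviations of libraries with equal numbers correlated at 0.042 over genes. A mean of at least 50 counts removed *FGF21* from the test and left 2 called higher. Without the fold change threshold 8 members passed higher and 18 lower, and in the related sets 41 and 44. By the adjusted p-value of DESeq2 alone, 8 members were higher and 16 lower. *CBS* (adjusted p = 0.052) and *CTH* (adjusted p = 0.064) did not pass there. Against a 1.5-fold null 3 members were higher and 2 lower (*PPP1R15A* and *DDIT4*), and 6 related genes were higher and 2 lower. That test is stricter by construction. In it *NUPR1* (adjusted p = 0.14), *PYCR1* (adjusted p = 0.14) and *VLDLR* (adjusted p = 0.51) lost their calls, and *FGF21* passed at an adjusted p of 0.046. With library size alone the median was -0.11, and *JDP2* (0.013), *TRIB3* (0.023) and *STC2* (0.015) changed sign. With the GC and length correction the median was -0.051, and *CEBPB* (0.077), *TRIB3* (0.14) and *PHGDH* (0.0014) changed sign. The cause was not tested. When single libraries were omitted, the lone library being assumed to vary like the other group, the median ranged from -0.20 to -0.12, 3 members were called higher and 4 or 5 lower, and the call lost was *VLDLR*, without control replicate 1. Depth limits the statements on *FGF21*, whose log2 fold change ranged from 1.69 to 3.09 in those fits.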
